A study of Homo sapiens with 4 samples.

Results

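The genes described here are 10 members of the ephrin and Eph receptor family: the ephrin-A ligands EFNA1, EFNA3, EFNA4 and EFNA5, the ephrin-B ligands EFNB1 and EFNB2, the EphA receptors EPHA1 and EPHA2, and the EphB receptors EPHB2 and EPHB4. They were taken by gene symbol from read count tables that list 16370 genes in all. RNA was sequenced in 4 libraries, 1 library for each cell line. Hep3B and Huh7 are established human hepatoma lines and form the hepatocellular carcinoma (HCC) group. From each of them a stem-like culture was grown, Hep3B-C from Hep3B and Huh7-C from Huh7, and these form the hepatic cancer stem cell (HCSC) group. No genetic change or drug distinguishes the groups in the labels, and HCSC here means an enriched culture of a single line, not cells sorted from a tumour. Each HCSC library was compared with the library of its own parental line, which asks which genes differ between the stem-like culture and the cells it came from. In the Hep3B pair 9 members were listed, since EPHB2 had no read in either culture, and in the Huh7 pair all 10 were listed.

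Ephrins are ligands anchored in the cell membrane, the A class by a lipid anchor and the B class by a membrane-spanning segment with a cytoplasmic tail. Eph receptors are receptor tyrosine kinases that bind ephrins on a neighbouring cell, and both the receptor-bearing and the ephrin-bearing cell can respond. The family is known for cell repulsion, boundary formation, axon guidance and blood vessel patterning, and in epithelial tumours for effects on adhesion and migration.

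EFNA4, EFNA3 and EFNA1 lie next to each other on the plus strand of chromosome 1, and their changes in the HCSC libraries differed. EPHA1 is the member that rose in Hep3B-C. For this reason the 250 bases before the annotated start of each of these 4 genes are shown, 5′ to 3′ on the strand of the gene (RefSeq, GRCh38.p14). Capitals mark GC boxes, GGGCGG on either strand, so that CCGCCC is also in capitals. The windows are chr1:155063490-155063739 for EFNA4, chr1:155078587-155078836 for EFNA3, chr1:155127626-155127875 for EFNA1 and, on the minus strand, chr7:143408857-143409106 for EPHA1.
EFNA4: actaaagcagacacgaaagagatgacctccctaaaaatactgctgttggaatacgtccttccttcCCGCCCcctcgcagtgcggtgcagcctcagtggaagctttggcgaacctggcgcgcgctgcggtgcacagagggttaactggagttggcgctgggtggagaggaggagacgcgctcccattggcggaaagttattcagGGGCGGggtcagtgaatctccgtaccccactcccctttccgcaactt
EFNA3: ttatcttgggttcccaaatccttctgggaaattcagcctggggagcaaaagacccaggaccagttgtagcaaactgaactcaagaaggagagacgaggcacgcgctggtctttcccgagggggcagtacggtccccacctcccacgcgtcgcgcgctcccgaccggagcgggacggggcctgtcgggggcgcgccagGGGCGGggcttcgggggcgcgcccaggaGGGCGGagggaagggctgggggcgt
EFNA1: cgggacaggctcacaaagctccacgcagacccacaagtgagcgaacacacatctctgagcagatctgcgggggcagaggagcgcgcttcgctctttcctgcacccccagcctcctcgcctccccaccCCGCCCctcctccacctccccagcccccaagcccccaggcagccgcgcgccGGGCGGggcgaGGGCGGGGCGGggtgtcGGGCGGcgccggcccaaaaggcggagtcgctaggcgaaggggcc
EPHA1: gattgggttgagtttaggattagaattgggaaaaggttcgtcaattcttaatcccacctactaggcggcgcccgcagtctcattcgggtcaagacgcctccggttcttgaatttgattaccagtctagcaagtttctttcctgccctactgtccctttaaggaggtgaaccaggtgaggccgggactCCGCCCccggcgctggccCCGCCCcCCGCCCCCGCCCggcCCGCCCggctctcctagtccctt
EFNA1 and EPHA1 each held 5 GC boxes, and EFNA3 and EFNA4 each held 2. Among 35116 promoter windows of this length, 42.6% held at least 1. The AP-1 site TGACTCA was in none of these 4 windows (4.2% of all promoters), nor was the E-box CACGTG (6.34%), the hypoxia response core ACGTG (18.5%, which lies within the E-box) or TATAAA (10.7%).

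Library depth limits all values below. The Hep3B library was the smallest, with 2896418 counts over all genes, and Hep3B-C the largest, with 4641927, while Huh7 held 4537510 and Huh7-C 4333808. CPM denotes the count of a gene scaled to the library total, and 3 counts, the lowest level read as present, correspond to 1.04 CPM in Hep3B and 0.646 CPM in Hep3B-C, and to 0.661 and 0.692 CPM for Huh7 and Huh7-C. The pairs also differed as a whole. Among genes with at least 20 counts in a pair, the median log2 fold-change (HCSC/HCC) was -0.55 in the Hep3B pair and 0.06 in the Huh7 pair. The fold-change of the Hep3B pair followed GC content (Spearman 0.63 across 11338 genes) and gene length (-0.43 across 11433). For the Huh7 pair these values were -0.06 and 0.31. Such a trend across genes was present beside every result of the Hep3B pair, and its part in the members' values was not tested other than by the alternatives named with them. Where trends were removed in a pair, the total gene count and the median shift of the pair were kept. Values called down after such removal in the Hep3B pair therefore still carry that shift.

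The order of the members was read on the RPKM scale (CPM divided by the gene length in kilobases), with exact Poisson 95% intervals that cover counting error only. EFNA1 was the highest member in both HCC libraries. It stood at 69.0 RPKM in Hep3B (61.6 to 77.1) and 31.2 RPKM in Huh7 (27.3 to 35.6), and these intervals overlapped with those of no other member. In both HCSC libraries EPHB4 had the highest value. In Hep3B-C, EPHB4 stood at 26.1 RPKM (23.9 to 28.4), ahead of EFNA1 at 14.7 RPKM (12.1 to 17.8), and the intervals did not overlap. In Huh7-C, the interval of EPHB4 at 12.0 RPKM (10.5 to 13.7) overlapped with those of EFNA4 at 11.0 RPKM (8.4 to 14.2), EFNA3 at 9.58 RPKM (7.52 to 12.0), EPHA2 at 9.36 RPKM (7.96 to 10.9) and EFNA1 at 8.25 RPKM (6.23 to 10.7). The overlap with EPHA2 and EFNA1 was slight. Overlap of intervals is not a test of a difference, and the order of these 5 genes in Huh7-C was not tested.

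The lower part of the order depended on the parental line. EPHA1 stood at 5.65 RPKM in Hep3B and 11.9 RPKM in Hep3B-C, and had 0 counts in Huh7 and 2 counts in Huh7-C. EPHB2 showed the opposite pattern, with 54 counts in Huh7, 13 counts in Huh7-C and no listed read in Hep3B or Hep3B-C. Each of these receptors was thus above the 3-count limit in 1 parental background. EFNA5 was higher in the Huh7 background, at 2.31 RPKM in Huh7 and 2.12 RPKM in Huh7-C against 0.388 RPKM in Hep3B and 0.242 RPKM in Hep3B-C. EFNB2 was higher in the Hep3B background, at 1.68 RPKM in Hep3B and 1.5 RPKM in Hep3B-C against 0.204 RPKM in Huh7 and 0.16 RPKM in Huh7-C. For EFNA5 and EFNB2 the intervals of the libraries of one background did not overlap with those of the other. EFNA4, EPHA2 and EPHB4 were above 5 RPKM in all 4 libraries.

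**Figure D1:**
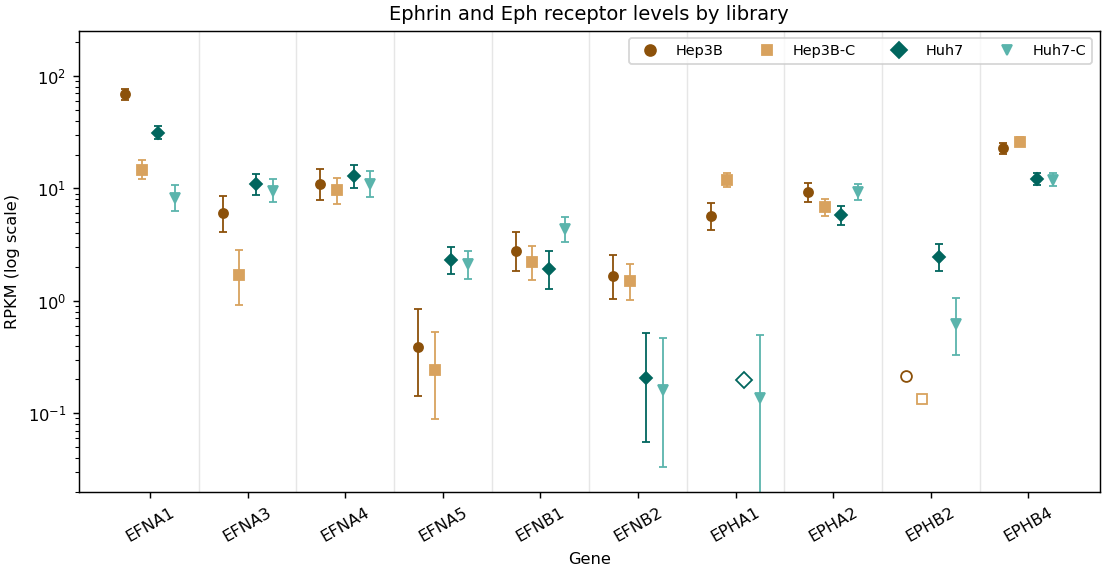
Level of each of the 10 members in each library, in RPKM on a log axis, with bars for the exact Poisson 95% interval. Open symbols mark a count of 0 and are placed at the level of 3 counts. EFNA1 is the highest point in Hep3B and Huh7, EPHB4 is the highest in Hep3B-C and Huh7-C, and EPHA1 and EPHB2 are each at or under the 3-count level in the libraries of 1 parental line.

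The libraries of a pair were compared by the Audic-Claverie test, which treats both counts as Poisson. A gene was called where the FDR (Benjamini-Hochberg, over all genes of the pair) did not exceed 0.01 and the log2 fold-change reached 1 in either direction. With 1 library per cell line, the test compares these libraries and not the conditions, and no call had a replicate check. Among 9 members of the Hep3B pair, 1 was called up and 2 were called down, where 13.2% of all genes were called up and 30.4% down. Among 10 members of the Huh7 pair, 1 was called up and 2 were called down, against 4.19% and 4.15% of all genes. The shares of members called in the Hep3B pair (11.1% up, 22.2% down) were near those of all genes.

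EFNA1, a ligand of EphA receptors that was first described as a gene induced by tumour necrosis factor in endothelial cells, was lower in both HCSC libraries. It had 313 counts in Hep3B and 107 in Hep3B-C, or 108 and 23.1 CPM. The Huh7 pair showed 222 counts in Huh7 and 56 in Huh7-C, or 48.9 and 12.9 CPM. Both HCSC libraries thus lay below both HCC libraries. In such bulk libraries, fewer cells with the transcript and less transcript per cell cannot be told apart. The log2 fold-change was -2.22 (SE 0.16, FDR 6.45e-50) in the Hep3B pair and -1.91 (SE 0.21, FDR 9.56e-22) in the Huh7 pair, by the Audic-Claverie test. EFNA1 was the 1 member called in both pairs, among 208 genes called down in both, which were 1.49% of the 13917 genes listed in both pairs. Under other library sizes, count filters and trend corrections its log2 fold-change ranged from -3.56 to -1.70 in the Hep3B pair and from -1.98 to -1.71 in the Huh7 pair. With an assumed biological coefficient of variation (BCV, the relative spread between replicates) of 0.4, neither call was kept (FDR 0.107 and 1, edgeR exact test).

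EFNA3, another ephrin-A ligand, fell in Hep3B-C and was not called in Huh7-C. Its counts were 31 in Hep3B and 14 in Hep3B-C, and 88 in Huh7 and 74 in Huh7-C. The log2 fold-change was -1.80 (SE 0.46, FDR 8.14e-05) in the Hep3B pair and -0.18 (SE 0.23, FDR 0.636) in the Huh7 pair, by the Audic-Claverie test. The level in Hep3B-C, 3.02 CPM, was the lowest of the 4 libraries, and the other 3 stood between 10.7 and 19.4 CPM. Whether the fold-changes of the pairs differ was not tested. Over the alternatives the value of the Hep3B pair ranged from -3.49 to -1.27, and the call was lost at the assumed BCV of 0.4 (FDR 0.264).

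EFNA4 and EFNA5, the remaining ephrin-A ligands among the members, were called in neither pair. EFNA4 had 40 counts in Hep3B against 56 in Hep3B-C, and 74 in Huh7 against 60 in Huh7-C, and its CPM ranged from 12.1 to 16.3. The log2 fold-changes were -0.20 (SE 0.30) and -0.23 (SE 0.25), with 95% intervals of the ratio HCSC/HCC of 0.572 to 1.35 in the Hep3B pair and 0.594 to 1.21 in the Huh7 pair. Its direction in the Hep3B pair turned with TMM library sizes (0.28), and it was called down there once the trend with gene length (-1.22) or the trends with GC content and length (-1.91) were removed. EFNA5 had 6 counts in each library of the Hep3B pair, and 56 and 49 in Huh7 and Huh7-C, a log2 fold-change of -0.12 (SE 0.28) in the Huh7 pair. Its ratio in the Hep3B pair had an interval of 0.167 to 2.33, so a difference was not detectable at this depth.

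**Figure D2:**
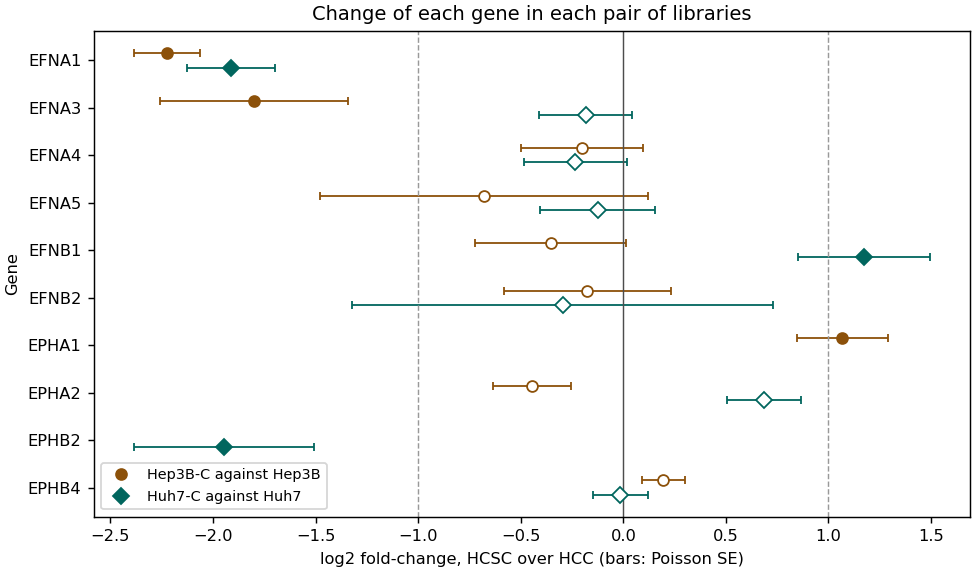
Log2 fold-change (HCSC/HCC) of each member in the Hep3B pair (circles) and the Huh7 pair (diamonds), with bars for the Poisson standard error. Filled symbols are called, and dashed lines mark the threshold of 1 in each direction. EFNA1 is the 1 gene with filled symbols in both pairs. EPHB2 is not listed in the Hep3B pair, and EPHA1 in the Huh7 pair is left out because both of its counts are at or under 3.

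The neighbours EFNA4, EFNA3 and EFNA1 were also compared with each other within each library. Such a ratio does not use the library total, wherever the genes lie. In GENCODE 29 (GRCh38) EFNA4 extends from 155063731 to 155069553, EFNA3 from 155078872 to 155087538 and EFNA1 from 155127460 to 155134857 on chromosome 1. The RefSeq start of EFNA3 is 15.1 kb from that of EFNA4, and the start of EFNA1 is a further 49.0 kb away. EFNA4 and EFNA3 both overlap the protein-coding gene AL691442.1 on the same strand, so reads of these 3 genes could have been assigned to one or another of them. The count of each gene per count of its neighbour was compared between the libraries of a pair with Fisher's exact test (2-sided, 6 tests), a comparison chosen after the data were seen. This ratio is free of library scaling, but not of trends with GC content or length. With 1 library on each side, its p-values cover counting error only and compare these libraries, not the conditions. No alternative with an assumed BCV was run for it.

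EFNA1 fell relative to EFNA4 in both pairs. There were 7.83 counts of EFNA1 per count of EFNA4 in Hep3B and 1.91 in Hep3B-C (adjusted p = 1.19e-08, Fisher's exact test). The ratio was 3 in Huh7 and 0.933 in Huh7-C (adjusted p = 7.54e-07, Fisher's exact test). Relative to EFNA3, EFNA1 fell in the Huh7 pair, from 2.52 to 0.757 (adjusted p = 7.45e-08, Fisher's exact test). Where EFNA3 was also called down, in the Hep3B pair, that ratio went from 10.1 to 7.64 (adjusted p = 0.569, Fisher's exact test). EFNA4 per EFNA3 went from 1.29 to 4.0 in the Hep3B pair (adjusted p = 0.00548, Fisher's exact test) and from 0.841 to 0.811 in the Huh7 pair (adjusted p = 0.907, Fisher's exact test). With the length trend of the Hep3B pair removed all 3 genes were called down there, at -3.09 for EFNA1, -2.54 for EFNA3 and -1.22 for EFNA4, and with GC and length trends removed at -3.56, -3.49 and -1.91. These values keep the median shift of the pair (-0.55), and trend removal together with TMM library sizes was not run.

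Of the ephrin-B ligands, EFNB1 was called up in the Huh7 pair, and neither was called in the Hep3B pair. EFNB1, which lies on the X chromosome and is known for its role in craniofacial development, had 27 counts in Hep3B and 34 in Hep3B-C, and 29 in Huh7 and 63 in Huh7-C. Huh7-C, at 14.5 CPM, was above the other 3 libraries, which stood between 6.39 and 9.32 CPM. The log2 fold-change was 1.17 (SE 0.32, FDR 0.00102, Audic-Claverie test) in the Huh7 pair and -0.35 (SE 0.37, FDR 0.401) in the Hep3B pair. The value of the Hep3B pair turned to 0.13 with TMM library sizes and was called down, at -1.52, once GC and length trends were removed. The call in the Huh7 pair was lost at the assumed BCV of 0.4.

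EFNB2, the ligand of EPHB4 that marks arterial endothelium in developing vessels, was called in neither pair. It had 21 counts in Hep3B and 30 in Hep3B-C, a log2 fold-change of -0.18 (SE 0.41, FDR 0.723, Audic-Claverie test), which TMM library sizes turned to 0.31. Its counts in the Huh7 pair were 4 and 3, and the interval of the ratio, 0.115 to 4.64, left changes in either direction undetectable.

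EPHA1, the first receptor of the family to be cloned and originally found in a hepatoma line, was the member called up in the Hep3B pair. It had 55 counts in Hep3B and 186 in Hep3B-C, or 19.0 and 40.1 CPM. The log2 fold-change was 1.07 (SE 0.22, FDR 9.37e-07, Audic-Claverie test), close to the threshold of 1. The call was lost with 5 added to each count (0.99), at the assumed BCV of 0.4, and with GC and length trends removed, where the log2 fold-change was -0.03. In GENCODE 29 EPHA1 overlaps ZYX and the antisense gene EPHA1-AS1, and the strand of the counted reads was not stated in the sources used here, so reads of these genes could not be told apart. No fold-change is given in the Huh7 pair, since its counts of 0 and 2 were at or under the limit of 3.

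EPHA2, the receptor of EFNA1 that is often abundant in epithelial tumours, was called in neither pair. It had 106 counts in Hep3B and 125 in Hep3B-C, and 104 in Huh7 and 160 in Huh7-C. The highest levels, 36.6 CPM in Hep3B and 36.9 CPM in Huh7-C, were thus in an HCC and an HCSC library. The log2 fold-change was -0.44 (SE 0.19, FDR 0.0325) in the Hep3B pair and 0.69 (SE 0.18, FDR 0.000779) in the Huh7 pair, by the Audic-Claverie test. The latter passed the FDR but not the threshold of 1. The value of the Hep3B pair turned to 0.04 with TMM library sizes, and was called down at -1.48 with GC and length trends removed.

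The EphB receptors among the members differed from each other. EPHB2, a receptor known for ordering cells along the intestinal crypt, was called down in the Huh7 pair, with 54 counts in Huh7 and 13 in Huh7-C. Its level was 11.9 CPM in Huh7 and 3.0 CPM in Huh7-C, a log2 fold-change of -1.95 (SE 0.44, FDR 5.01e-06, Audic-Claverie test). The value ranged from -2.14 to -1.65 over the alternatives, and the call was lost at the assumed BCV of 0.4. In Hep3B and Hep3B-C no read was listed, and the upper 95% Poisson limits of its level were 1.27 and 0.795 CPM.

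EPHB4, the venous partner of EFNB2 in blood vessels, had the most counts of the receptors. It had 287 counts in Hep3B and 527 in Hep3B-C, or 99.1 and 114 CPM, and 239 counts in Huh7 and 226 in Huh7-C, or 52.7 and 52.1 CPM. The level was higher in the Hep3B libraries than in the Huh7 libraries on this scale. The log2 fold-change was 0.20 (SE 0.11, FDR 0.1) in the Hep3B pair and -0.01 (SE 0.13, FDR 1) in the Huh7 pair, by the Audic-Claverie test. The 95% interval of the ratio HCSC/HCC was 0.822 to 1.19 in the Huh7 pair and 0.99 to 1.33 in the Hep3B pair. TMM library sizes moved the log2 fold-change of the Hep3B pair to 0.68, which stayed under the threshold of 1, and removal of GC and length trends turned it to -0.87. EPHB4 overlaps SLC12A9 on the opposite strand, and EFNB2, EPHA2 and EPHB2 each overlap an annotated antisense gene.

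**Figure D3:**
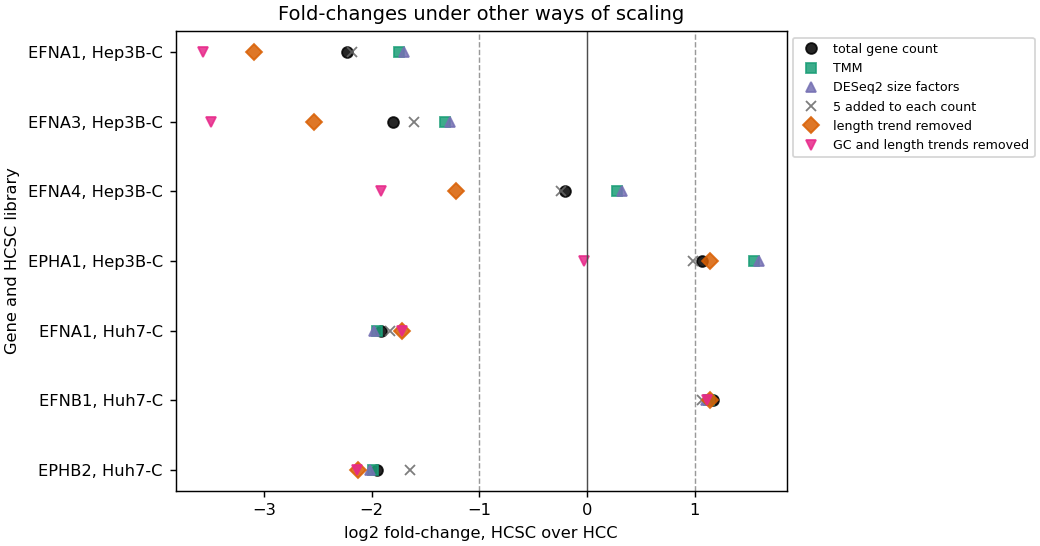
Log2 fold-change (HCSC/HCC) of the members called in a pair, and of EFNA4, under 6 ways of scaling the counts. Dashed lines mark the threshold of 1. EFNA1 stays below -1 in both pairs under all 6, EPHA1 lies at -0.03 when GC and length trends are removed, and EFNA4 spans -1.91 to 0.33.

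Summed over the 19 family genes in the files, the ratio of ligand to receptor transcripts was lower in each HCSC library than in its parental one. Summed ligand RPKM was 110 in Hep3B and 47.7 in Hep3B-C, and 68.2 in Huh7 and 46.3 in Huh7-C. Summed receptor RPKM was 39.0 in Hep3B and 46.1 in Hep3B-C, and 33.9 in Huh7 and 27.7 in Huh7-C. The ratio of the sums, which library scaling does not change but GC and length trends can, was 2.82 in Hep3B and 1.03 in Hep3B-C, and 2.01 in Huh7 and 1.67 in Huh7-C. The sum in Hep3B-C rested in part on EFNA2, the shortest gene of the family (642 bases), which gave 17.8 RPKM from 53 counts. Without EFNA2, an alternative chosen after the data were seen, the ratio was 2.33 in Hep3B and 0.649 in Hep3B-C, so that receptors exceeded ligands there, and 1.76 in Huh7 and 1.28 in Huh7-C. EFNA1 supplied 62.9% of ligand RPKM in Hep3B and 30.8% in Hep3B-C, and 45.8% in Huh7 and 17.8% in Huh7-C. Among receptors, EPHB4 supplied 58.4% in Hep3B and 56.6% in Hep3B-C, and 35.8% in Huh7 against 43.3% in Huh7-C. EPHB4 itself stood at 12.1 RPKM in Huh7 and 12.0 RPKM in Huh7-C. The receptor sum in Huh7 rested in part on EPHB6, at 12.4 RPKM there and 0.742 RPKM in Huh7-C. The ratio of the sums without EPHB6 was not computed. These sums are of transcripts, not of proteins on the cell surface, and have no replicate error.

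**Figure D4:**
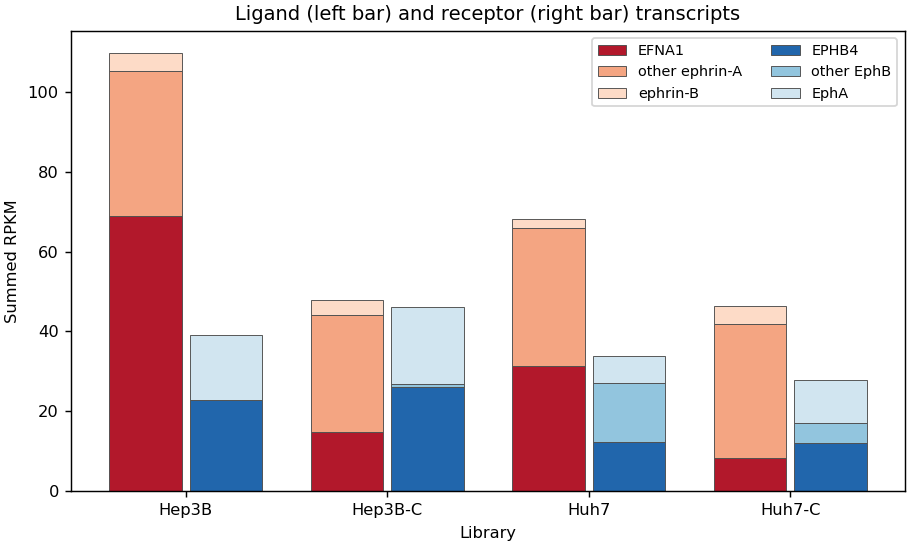
Summed RPKM of ephrin ligands (left bar, reds) and Eph receptors (right bar, blues) in each library, split into EFNA1, other ephrin-A and ephrin-B, and into EPHB4, other EphB and EphA. The EFNA1 segment shrinks from 69.0 to 14.7 RPKM in the Hep3B pair and from 31.2 to 8.25 RPKM in the Huh7 pair, and in Hep3B-C the ligand bar stands at 47.7 RPKM, of which EFNA2 is 17.8, and the receptor bar at 46.1 RPKM.

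Of the 12 other genes of the family, 9 had a read in at least 1 pair, and EPHA4, EPHA8 and EPHB1 were not listed. EPHB3, an EphB receptor that acts with EPHB2 in the intestinal crypt, was called up in both pairs, opposite to EPHB2 in the Huh7 pair. It had 4 counts in Huh7 and 67 in Huh7-C (log2 fold-change 3.97, SE 0.70, FDR 3.37e-15, Audic-Claverie test). It had 0 counts in Hep3B and 14 in Hep3B-C, which was at least 2.91-fold higher when Hep3B was set to 3 counts, and this call was lost with GC and length trends removed (FDR 0.0897). EPHB6, a family member without kinase activity, had 227 counts in Huh7 and 13 in Huh7-C (log2 fold-change -4.01, SE 0.40, FDR 4.79e-48, Audic-Claverie test), and 1 and 0 counts in the Hep3B pair. Huh7-C thus had less EPHB2 and EPHB6 and more EPHB3 than Huh7. EPHA5 had 3 counts in Huh7 and 21 in Huh7-C and was called up, and 8 counts in Hep3B and 1 in Hep3B-C, where it was called down with the total gene count and not with TMM (FDR 0.0212). The calls of EPHB3, EPHB6 and EPHA5 were lost at the assumed BCV of 0.4. EFNA2 (25 to 53 counts in a library) and EPHA10 (4 to 14 counts) were called in neither pair, but EFNA2 was called down in the Hep3B pair with the length trend (-1.31) or GC and length trends (-2.47) removed, against -0.089 without. EPHA3, named after its values were seen, was called down in the Hep3B pair, where it had 6 and 0 counts, and the call was lost with TMM (FDR 0.0171) and 5 other alternatives.

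Over all 4 libraries, no member passed the joint comparison of HCSC with HCC. It was fitted with edgeR (quasi-likelihood test, TMM) and took the parental line as a block, so that 1 degree of freedom remained for the spread. Only 0.0171% of 11691 genes were called up and 0.00855% down, at an adjusted p of at most 0.01, which is 2 genes and 1 gene. EFNA1 had a log2 fold-change of -1.90 (adjusted p = 0.999, edgeR). It was the 1 member under 0.05 before adjustment. DESeq2's Wald test also called 0 members, with 1 under 0.05 before adjustment. With the GC and length trends of each library as offsets and the same block, EFNA1 was called, at -2.43 (adjusted p = 0.000415, edgeR). EPHB3 stood at 4.44 (adjusted p = 0.279, edgeR) and EPHB6 at -4.06 (adjusted p = 0.441, edgeR), and with the offsets their adjusted p was 0.0261 and 0.000763 (edgeR).

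The genes whose changes were most like those of EFNA1 were H19, IGFBP3, ZDHHC13, ELOVL7 and MPZL2. They had the smallest Euclidean distances from EFNA1 in the 2 log2 fold-changes, 0.037 for H19 and 0.375 for MPZL2, among 7728 genes with at least 50 counts in a library of each pair. H19, an imprinted long non-coding RNA of fetal liver, had 48007 counts in Hep3B and 16046 in Hep3B-C, and 249 in Huh7 and 63 in Huh7-C. IGFBP3, a secreted binding protein of insulin-like growth factors, had 639 and 220 counts in the Hep3B pair and 6720 and 1834 in the Huh7 pair. Likeness over 2 values describes these libraries only.

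Genes that act with or beside the family were described by counts, to be read against the 13.2% of all genes called up and 30.4% called down in the Hep3B pair, and 4.19% and 4.15% in the Huh7 pair. Of 16 kinases and adaptors of Eph signalling, 2 were called up and 8 down in the Hep3B pair, with a median log2 fold-change of -1.51 against -0.60 for all genes with at least 10 counts. For the Huh7 pair 0 of 16 were called, with a median of 0.12 against 0.06. SRC, a kinase recruited by both receptors and ephrins, rose in the Hep3B pair, from 104 to 361 counts (log2 fold-change 1.11), a call lost with GC and length trends removed (0.20). RASA1, a Ras GTPase-activating protein that binds EphB receptors, fell there from 141 to 41 counts (-2.45). With GC and length trends removed RASA1 was still called down, at -1.23. At the assumed BCV of 0.4 the calls of SRC and RASA1 were lost (FDR 0.45 and 0.084, edgeR exact test). The medians of the lists were not computed with these trends removed.

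Among 16 genes of reverse signalling, shedding and turnover, 1 was called up and 6 of the 15 listed down in the Hep3B pair, and 1 up and 0 down in the Huh7 pair. ADAM10, the protease that cleaves ephrin-A ligands, had 656 counts in Hep3B and 169 in Hep3B-C (log2 fold-change -2.63), and 248 in Huh7 and 377 in Huh7-C (0.67, not called). In the Hep3B pair ADAM10 stood at -1.68 with GC and length trends removed. Its call there was lost at the assumed BCV of 0.4 (FDR 0.0544, edgeR exact test).

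Other axon guidance genes were listed for comparison. Among the ligands 2 of 22 listed were called up and 10 down in the Hep3B pair, and 2 up and 1 down in the Huh7 pair. NTN4, a netrin, was called down in both, from 23 to 6 counts and from 22 to 0. Among the receptors 1 of 16 was called up and 4 down in the Hep3B pair, and 1 of 15 up and 3 down in the Huh7 pair. NRP2 fell from 8 counts to 1 and from 26 to 3, and ROBO2 from 11 to 0 and from 36 to 12, and both were called down in both pairs. The call of NRP2 in the Hep3B pair was lost with TMM (FDR 0.0212). The median of the ligand list in the Hep3B pair, -2.20, was below that of all genes, and in the Huh7 pair it was 0.16.

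Markers of hepatocytes and of other cell types were read beside these values, since EFNA1, EFNB2 and EPHB4 are also known from endothelium. All 10 hepatocyte markers had at least 10 counts in all 4 libraries, with a summed level from 26890 CPM in Huh7-C to 72500 CPM in Hep3B-C. The sums of the Huh7 pair rested mostly on SERPINA1 and APOB. SERPINA1 stood at 40517 CPM in Huh7 and 17284 CPM in Huh7-C, and APOB at 4781 and 7488 CPM. TTR stood at 2.87 CPM in Huh7 and 3.0 CPM in Huh7-C. AFP, a fetal liver protein usually abundant in Huh7 cells, stood at 5.73 CPM in Huh7 and 2.77 CPM in Huh7-C, against 5584 CPM in Hep3B and 905 CPM in Hep3B-C. ALB stood at 106 CPM in Huh7 and 267 CPM in Huh7-C. Of 8 endothelial markers, CDH5, TEK, TIE1 and ERG were at 0 in all 4 libraries, and the summed level was 3.11 CPM in Hep3B and 7.76 CPM in Hep3B-C, and 3.97 CPM in Huh7 against 21.7 CPM in Huh7-C, of which PECAM1 was 21.5 CPM. Of 8 fibroblast and stellate markers, DCN and ACTA2 were at 0 in all 4 libraries, and the summed level ranged from 10.8 to 45.2 CPM. PDGFRB of this list stood at 9.67 CPM in Hep3B, 9.69 CPM in Hep3B-C, 41.0 CPM in Huh7 and 0.461 CPM in Huh7-C. COL3A1 stood at 0 CPM in Huh7 and 13.4 CPM in Huh7-C. The leukocyte markers PTPRC and CD3E were at 0 in all 4 libraries, while CD68, a lysosomal protein of macrophages, ranged from 99.8 to 270 CPM and LYZ from 52.0 to 212 CPM.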

How the data were processed

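An Illumina Genome Analyzer II was used for mRNA libraries made from total RNA of 4 hepatoma cultures, 1 library per cell line. The authors mapped the reads with NextGENe to NCBI Build 36.1. The authors deposited raw counts of reads per gene beside the Entrez ID, symbol and gene length, and only genes with a read in a pair were listed. The treatment of reads with several matches and of strand was not given in the sources used here. Groups and parental lines were taken from the labels, in which the name of each HCSC culture pairs it with its line. No replicate numbers were given.

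Genes were joined by ID, and 21 file rows without a symbol were kept. CPM and RPKM were computed on the total gene count, which also sets the precision through Poisson intervals. Fold-changes had 0.5 added to each count, and SEs were Poisson. Each pair was compared with the Audic-Claverie test (2-sided, Benjamini-Hochberg). All 4 libraries were compared with edgeR 4.0.16 (quasi-likelihood, filterByExpr, parental line as block), where genes missing from a pair were taken as 0. The p-values of the Audic-Claverie and Fisher's exact tests cover counting error only. Those of the joint comparison measure the spread between these 4 libraries only. Alternatives included TMM and DESeq2 1.42.0 size factors, 5 added to each count, a minimum of 10 counts, an exact binomial test, a BCV of 0.4, and removal of lowess trends (span 0.3, at least 20 counts) on length or GC content, with GC content from 1 GENCODE 29 transcript per gene. In the pair tests the trends were centred on the median of the pair, and their removal was not combined with TMM or DESeq2 size factors. Scripts were tested on simulated data in Python 3.11.15 (scipy 1.17.1) and R 4.3.3. Positions are GRCh38 annotation, not the coordinates of the authors' mapping.

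All members were named. Other family genes were named where a library had at least 10 counts. From the other lists, genes called alike in both pairs, or among the 2 largest changes in each direction with at least 50 counts, could be named. The results of 1 list and of some markers are not reported here. The members and lists were chosen with earlier results of these data known.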

Additional observations from a re-analysis of the deposited data

Results flagged for a closer look

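The values of EFNB1 and EPHA2 had opposite signs in the pairs, though of the 4 values only that of EFNB1 in the Huh7 pair was called. For EFNB1 the log2 fold-change was -0.35 in the Hep3B pair and 1.17 in the Huh7 pair, a difference of -1.53. For EPHA2 it was -0.44 and 0.69, a difference of -1.13. Neither difference was tested, since each pair holds 1 library of each kind. With TMM library sizes both values of the Hep3B pair turned positive (0.13 for EFNB1 and 0.04 for EPHA2), so that the directions no longer differed. With GC and length trends removed the values of the pairs lay further apart. EFNB1 was then -1.52 in the Hep3B pair and 1.12 in the Huh7 pair, and EPHA2 was -1.48 and 0.58.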

How the results depend on the processing

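Of 114 values of a member in a pair under an alternative, 90 kept their direction and their side of the threshold, 13 reversed, 7 lost and 4 gained a call. The assumed BCV of 0.4 changes p-values only, so values under it could not reverse. The reversed values were all in the Hep3B pair. With TMM library sizes they were 0.28 for EFNA4, 0.13 for EFNB1, 0.31 for EFNB2 and 0.040 for EPHA2. With DESeq2 size factors they were 0.33, 0.18, 0.35 and 0.086 for the same genes. With the length trend removed EFNB2 was 0.23. With GC and length trends removed EFNA5 was 0.42, EFNB2 0.45, EPHA1 -0.031 and EPHB4 -0.87. EPHA1 also lost its call there, which is counted above only as reversed. TMM shifted all log2 fold-changes of the Hep3B pair by 0.48, and calls up made 49.4% of all calls against 30.3% with the total gene count. In the Hep3B pair, 2043 of 15480 genes were called up and 4708 down with the total gene count. The counts were 3056 up and 3134 down with TMM, 3164 and 3015 with DESeq2 size factors, and 62 and 169 at a BCV of 0.4. With GC and length trends removed, 615 genes were called up and 3890 down. With 5 added to each count, 1928 of 15480 genes were called up in the Hep3B pair. Of the 9 members listed there, 0 were then called up, since EPHA1 stood at 0.99. At a BCV of 0.4, 0 members were called up and 0 down. With GC and length trends removed, 0 members were called up and 5 down. In the Huh7 pair a BCV of 0.4 gave 13 genes up and 12 down, and 0 members up and 0 down. Summed RPKM with TMM was 91.1 for ligands and 32.4 for receptors in Hep3B, and 55.4 and 53.5 in Hep3B-C. The causes were not tested.

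The joint comparison called 0 genes up and 0 down with no replicate block, and the pairing by parental line comes from the labels. GC and length offsets with the replicate block gave 29 up and 67 down, and 1 member. Without a filter 5 genes were called down, as with DESeq2's Wald test. Leaving out each library in turn, with no block, gave 0 to 1 genes up and 0 down, and the log2 fold-change of EFNA1 ranged from -2.47 to -1.35. In those fits the lone library of a group is assumed to vary like the other group.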
